A study of Mus musculus with 4 samples.

Results

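The chemokine system was examined in the SI of irradiated mice, 1 day after TBI of 12 Gy, with and without p53. Its members were taken by gene name from the deposited table: every gene called Ccl, Cxcl, Ccr, Cxcr or Ackr followed by a number, together with Xcl1, Xcr1, Cx3cl1, Cx3cr1 and Ccrl2. This rule found 62 of the 56748 genes listed, of which 39 encode ligands and 23 encode receptors. RNA from whole SI tissue was sequenced in 2 p53+/+ libraries, named 7 and 8 after the table's columns, and 2 p53-/- libraries, named 9 and 10. The labels call the p53+/+ genotype WT, and the p53-/- mice lack p53 in the whole body rather than in a chosen cell type of the gut. Both genotypes received TBI, so each value below is a difference between irradiated SI samples, and unirradiated SI was not analysed here. The mice were age- and gender-matched adults. The libraries held 15005479 to 22173164 counts, so that 1 count was worth 0.0438 to 0.0649 CPM, the count scaled to a common library size after TMM normalization.

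Trp53 (ENSMUSG00000059552), the gene targeted in the p53-/- mice, was at 57.7 and 47.1 CPM in p53+/+ SI and at 19.8 and 22.5 CPM in p53-/- SI. Both p53-/- libraries lay below both p53+/+ libraries, but reads of the gene remained and the log2 fold change of -1.31 ± 0.188 (SE) did not pass the threshold (adjusted p = 0.0602, quasi-likelihood test of edgeR, Benjamini-Hochberg adjustment).

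Chemokines are small secreted proteins that guide migrating cells, and they act through G protein-coupled receptors on those cells, while the atypical receptors of the Ackr group bind chemokines without coupling to G proteins. In the SI, the epithelium makes ligands that keep lymphocytes and plasma cells in the mucosa. Other ligands are induced by interferon γ or by inflammation and draw T cells, monocytes or neutrophils, and a further group organises the B and T cell areas of gut lymphoid tissue.

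Most members that could be tested were at a higher level in the p53-/- SI, but few passed the threshold. Of the 39 ligands, 28 had enough counts for the test, and 2 rose past an adjusted p of 0.05, Cxcl9 and Ccl5, while 0 fell. Over all 16094 genes tested, 48 rose, which is 0.298% of them, and 31 fell, which is 0.193%. Of the 23 receptors, 18 were tested, 1 rose, Ccr4, and 0 fell. At an unadjusted p under 0.05, 17 ligands and 9 receptors were higher in p53-/- SI and 1 ligand, Cxcl11, and 0 receptors were lower, against 10% of all genes tested higher and 7.92% lower. DESeq2 in place of edgeR called 10 ligands and 6 receptors, all of them higher, where it called 812 genes higher and 663 lower in all. Its ligands were Ccl2, Ccl5, Ccl9, Ccl20, Ccl22, Ccl28, Cxcl5, Cxcl9, Cxcl10 and Cxcl13. Its receptors were Ccr4, Ccr7, Ccr9, Ccr10, Cxcr3 and Cxcr6.

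Among the tested ligands, 19 had both p53-/- libraries above both p53+/+ libraries, 3 had both below, and 6 overlapped. Among the tested receptors the numbers were 14 above, 0 below and 4 overlapping. Of all genes tested, 26.4% lay wholly above and 24.4% wholly below. The median log2 fold change was 2.22 over the tested ligands, with a range of -1.74 to 6.52, and 2.72 over the tested receptors, with a range of -0.76 to 7.26, beside a median of -0.01 over all genes tested. The upper ends are poorly bounded. They belong to Cxcl2, with 0 and 0 counts in p53+/+ SI, and to Cxcr5, with 3 and 0, which came to 2.68 without library 10. In bulk tissue, fewer cells of a type and less RNA per cell cannot be told apart, and this holds for every member below. These counts and medians are a description and no test, because 13 of the 28 ligands and 12 of the 18 receptors passed the filter on low counts through the p53-/- libraries alone. With at least 10 counts asked in every library, 15 ligands and 6 receptors were left, and their medians were 0.43 and 0.57. Of the 16 members not tested, 8 had 0 counts in all 4 libraries (Ccl1, Ccl21b, Ccl21d, Ccl26, Ccl27b, Cxcl15, Cxcl17 and Cxcr1).

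The deposited table holds 1 value per gene and no sequence, so the promoters of 6 ligands are shown as context for their levels. They are the 250 bases before the gene's start in RefSeq's GRCm38.p6 annotation, written 5′ to 3′ along the gene, and 47 of the 62 members had an entry in that table. Capitals mark letters that match, on either strand, the interferon-stimulated response element (ISRE, which is TTTC, any 2 bases, and TTTC again), the interferon γ-activated site (GAS, TTCNNNGAA) or the NF-kB consensus. Cxcl10, Cxcl1, Cxcl2 and Ccl20 are shown because they hold a match, and Cxcl9, which passed the test, and Ccl28, an abundant epithelial ligand, because they hold none.
Cxcl10 (chr5:92348890-92349139, minus strand): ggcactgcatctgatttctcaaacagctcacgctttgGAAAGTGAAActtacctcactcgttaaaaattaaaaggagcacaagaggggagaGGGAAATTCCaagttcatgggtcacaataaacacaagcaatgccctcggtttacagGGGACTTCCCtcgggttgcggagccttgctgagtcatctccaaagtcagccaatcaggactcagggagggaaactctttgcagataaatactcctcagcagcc
Cxcl1 (chr5:90890995-90891244, plus strand): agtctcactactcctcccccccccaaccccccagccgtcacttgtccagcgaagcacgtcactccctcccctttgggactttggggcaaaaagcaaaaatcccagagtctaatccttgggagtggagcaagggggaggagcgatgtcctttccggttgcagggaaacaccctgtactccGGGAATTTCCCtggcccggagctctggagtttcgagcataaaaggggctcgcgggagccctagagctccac
Cxcl2 (chr5:90903649-90903898, plus strand): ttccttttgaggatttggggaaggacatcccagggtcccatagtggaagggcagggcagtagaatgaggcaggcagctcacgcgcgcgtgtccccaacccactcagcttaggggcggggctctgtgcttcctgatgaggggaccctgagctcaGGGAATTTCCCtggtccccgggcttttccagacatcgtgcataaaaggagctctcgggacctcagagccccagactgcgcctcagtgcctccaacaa
Ccl20 (chr1:83116516-83116765, plus strand): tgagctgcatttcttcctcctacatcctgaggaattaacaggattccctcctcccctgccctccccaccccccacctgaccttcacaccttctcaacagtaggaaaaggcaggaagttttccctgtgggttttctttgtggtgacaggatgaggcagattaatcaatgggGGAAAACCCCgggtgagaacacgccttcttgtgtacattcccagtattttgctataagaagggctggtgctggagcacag
Cxcl9 (chr5:92328080-92328329, minus strand): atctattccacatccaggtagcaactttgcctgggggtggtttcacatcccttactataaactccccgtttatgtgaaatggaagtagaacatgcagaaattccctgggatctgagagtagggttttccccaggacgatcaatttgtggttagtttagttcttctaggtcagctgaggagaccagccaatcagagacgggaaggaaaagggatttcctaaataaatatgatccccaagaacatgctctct
Ccl28 (chr13:119623569-119623818, plus strand): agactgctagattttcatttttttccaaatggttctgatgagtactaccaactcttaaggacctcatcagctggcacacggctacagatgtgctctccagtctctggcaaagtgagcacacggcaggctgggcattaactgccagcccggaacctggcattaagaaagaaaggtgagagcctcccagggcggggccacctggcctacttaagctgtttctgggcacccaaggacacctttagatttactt
Cxcl10 held 1 ISRE match at position -213, counted from the gene's start, and NF-kB matches at -159 and -103. Cxcl1 and Cxcl2 each held the same run of letters, which matches the NF-kB consensus on both strands in 2 overlapping positions. Ccl20 held 1 such match at -80. Of the 15 ligands in the promoter table that lay wholly above in p53-/- SI, 6 held an NF-kB match (40.0%: Cxcl1, Cxcl2, Cxcl3, Cxcl10, Ccl20 and Ccl9), of the 13 other ligands 0 did, and the share over all 27025 genes of the table was 4.46%. For the receptors the order was turned, with 2 of 13 (15.4%) of those wholly above and 2 of 6 (33.3%) of the others. The shares of the ligands are limited in several ways. Ccl2, Ccl4, Ccl5, Ccl7, Ccl11, Ccl24 and Cxcl5 lay wholly above but had no entry in the promoter table, so the shares leave them out. Among the 13 other ligands, Ccl1, Ccl21b, Ccl21d, Ccl27b and Cxcl15 had 0 counts in all 4 libraries and could not lie above. Among the 6 with a match, Cxcl1, Cxcl2, Cxcl3 and Cxcl10 are all on chromosome 5, and Cxcl2 and Cxcl3 had 0 counts in both p53+/+ libraries. An ISRE match stood before 1 of the 15 ligands wholly above and 2 of the 13 others (all genes 3.46%), and a GAS match before 1 of each (all genes 8.13%). The p53 decamer, the unit that p53 binds as a pair, was found before 2 of the 15, Cxcl9 and Cxcl13, and 1 of the 13, Ccl6 (all genes 8.2%). A match of letters is not a bound site: no binding was measured here, and no enrichment test was run on these shares.

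The ligands of CXCR3, the receptor of activated T cells and natural killer cells, are known as interferon γ-induced chemokines, and they did not all lie on the same side. Cxcl9 (ENSMUSG00000029417) was at 1.3 and 1.95 CPM in p53+/+ SI and at 26 and 23.8 CPM in p53-/- SI. Both p53-/- libraries lay far above, and Cxcl9 rose from 1.62 ± 0.457 to 24.9 ± 1.56 CPM (SD, n = 2 libraries), which is a log2 fold change of 3.94 ± 0.334 (SE, adjusted p = 0.0279, quasi-likelihood test of edgeR, Benjamini-Hochberg adjustment). Cxcl10, whose promoter above holds the ISRE and NF-kB matches, was at 1.86 and 3.44 against 9.2 and 15.6 CPM. The libraries of the genotypes did not overlap, with a log2 fold change of 2.22 ± 0.486 (SE), but the adjusted p was 0.119 (edgeR, Benjamini-Hochberg). Cxcl11 went the other way, at 1.3 and 2.01 CPM in p53+/+ SI and 0.438 and 0.547 CPM in p53-/- SI. Those levels rest on 21, 31, 10 and 11 counts, and the log2 fold change of -1.74 ± 0.583 (SE) had an adjusted p of 0.221 (edgeR, Benjamini-Hochberg). Exons of Cxcl10 and Cxcl11 overlap Art3 and Gm2673 on the opposite strand in GENCODE M21, and with the strand setting of the counting unknown their reads cannot be told apart from those of the partner.

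Among the CC ligands of T and myeloid cells, Ccl5 (ENSMUSG00000035042), a product of activated T cells and natural killer cells, was the member that passed the test. It was at 4.89 and 6.36 CPM in p53+/+ SI and 38.6 and 53.4 CPM in p53-/- SI. Ccl5 rose from 5.62 ± 1.04 to 46 ± 10.4 CPM (SD, n = 2), which is a log2 fold change of 3.03 ± 0.275 (SE, adjusted p = 0.0296, edgeR, Benjamini-Hochberg). Ccl4, made by the same cells and by macrophages, had 1 and 3 counts in p53+/+ SI and 32 and 38 in p53-/- SI, a log2 fold change of 3.62 with an adjusted p of 0.113 (edgeR, Benjamini-Hochberg). Ccl3, its neighbour on chromosome 11, had 3 and 1 against 14 and 14 counts. Ccl6, a macrophage and myeloid chemokine, was the ligand with the highest level per kilobase of exon, at 107 CPM per kilobase in p53+/+ and 116 in p53-/- SI. Its libraries overlapped, at 223 and 162 against 200 and 215 CPM, with a log2 fold change of 0.11 ± 0.22 (SE, adjusted p = 0.849, edgeR, Benjamini-Hochberg). Ccl9, close to Ccl6 in sequence and position, was at 11.6 and 7.01 against 17.9 and 27.3 CPM (log2 fold change 1.28, adjusted p = 0.177, same test).

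Per kilobase of exon, the 6 ligands with the highest mean level were Ccl6, Ccl25, Cx3cl1, Ccl5, Ccl21a and Cxcl13, and of these Ccl5 passed the test. Cxcl13 ranked among them through library 10 alone, at 76.9 CPM against 0.681, 0.714 and 1.97 CPM in libraries 7, 8 and 9. Ccl5 went from 5.86 to 47.9 CPM per kilobase, which is between Ccl25 and Ccl6 in the p53-/- SI.

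Leaving out a library leaves its genotype with a single library, so calls lost in such a fit cannot be laid to the library left out. Without library 10 the log2 fold change was 4.05 for Cxcl9 and 2.83 for Ccl5, beside 3.94 and 3.03 with all libraries. Library 10 held the most ribosomal RNA, with 4.59% of its counts on Rn18s-rs5 against 0.296% to 0.863% in the other libraries. The calls of Cxcl9 and Ccl5 held when that gene was left out before scaling. Without library 7, 5 ligands and 3 receptors passed, and without library 8, 11 and 8. The log2 fold change of Cxcl9 lay between 3.68 and 4.25 and that of Ccl5 between 2.83 and 3.24 whichever library was left out. Their adjusted p ranged from 5.19e-21 to 0.304 for Cxcl9 and from 1.94e-25 to 0.306 for Ccl5 over all alternatives. Without library 9, Ccl5 and Cxcl13 were called and Cxcl9 was not.

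The monocyte attractants Ccl2, Ccl7 and Ccl12, ligands of CCR2, were scarce in p53+/+ SI. Ccl8, which is paired with Ccr8 here, is given beside them. Ccl2, the main ligand of CCR2, had 0 and 2 counts in p53+/+ SI and 18 and 62 in p53-/- SI, a ratio of 29.4 with a 95% exact counting interval of 7.88 to 247, which covers counting error only. Ccl8 had 2 and 19 against 72 and 109 counts, or 0.124 and 1.23 against 3.16 and 5.42 CPM, a log2 fold change of 2.66 ± 0.978 (SE, adjusted p = 0.25, edgeR, Benjamini-Hochberg). It ranged from 1.8 without library 7 to 5.04 without library 8, where Ccl8 was called (adjusted p = 0.0225, same test). Ccl7 had 1 and 4 against 14 and 27 counts, and all 3 genes lay wholly above in p53-/- SI. Ccl12, with 5 and 9 against 13 and 28 counts, overlapped in CPM. None of these 4 passed the threshold in the quasi-likelihood test on all 4 libraries, 3 had an unadjusted p under 0.05, and DESeq2 and the likelihood ratio test called Ccl2. The fitted log2 fold change of Ccl2, 4.78, was 3.53 to 8.25 with 1 library left out, and the highest, without library 8, is set against 0 counts.

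The ligands of CXCR2, which attract neutrophils, were near the limit of detection in p53+/+ SI. Cxcl5, made by epithelial cells, was at 0.433 and 0.13 CPM in p53+/+ SI and 11 and 7.86 CPM in p53-/- SI. These values rest on 7, 2, 252 and 158 counts. The log2 fold change of 5.03 ± 0.655 (SE) stopped just short of the threshold, with an adjusted p of 0.056 (edgeR, Benjamini-Hochberg). Cxcl1 had 2 and 2 against 19 and 16 counts. Cxcl2 had 0 and 0 against 13 and 13 counts and was at least 6.38-fold higher, taking 3 counts over the p53+/+ libraries as the bound. Cxcl3 had 0 and 0 against 4 and 14 counts and was at least 4.41-fold higher on the same bound. The NF-kB matches shown above stand before Cxcl1 and Cxcl2. Neutrophil markers were low as well. Summed over 8 markers they were at 0.619 and 1.36 CPM in p53+/+ and 3.86 and 3.28 CPM in p53-/- SI. The CXCR2 ligands summed to 0.557 and 0.26 against 12.6 and 10 CPM. Of the 8 markers 2 were tested, 4 lay wholly above and 1, Camp, below, and Elane had 0 counts in all libraries. Over all genes tested, 26.4% lay wholly above and 24.4% below. Csf3r made up most of the sum of the markers, at 0.495 and 1.04 against 2.45 and 2.04 CPM. The part of the markers in the levels of these ligands was not tested.

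Ccl22, a dendritic cell product that attracts T cells through CCR4, was at 0.557 and 0.454 CPM in p53+/+ SI and 3.9 and 5.37 CPM in p53-/- SI. It lay wholly above in p53-/- SI, with a log2 fold change of 3.18 ± 0.51 (SE, adjusted p = 0.0775, edgeR, Benjamini-Hochberg). Ccl17, the other CCR4 ligand, had 3 and 2 against 8 and 24 counts and was not tested. Xcl1, which T and natural killer cells release to attract XCR1-bearing dendritic cells, had 3 and 2 against 12 and 20 counts, and its exons overlap Gm20743. Of the eosinophil attractants, Ccl11 was at 0.557 and 3.57 against 4.43 and 5.97 CPM, a spread of 6.41-fold between the p53+/+ libraries, and Ccl24 had 0 and 3 against 8 and 7 counts.

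The ligands of lymphoid tissue differed widely between libraries of one genotype. Cxcl13, which follicular stromal cells make to draw B cells, was at 0.681 and 0.714 CPM in p53+/+ SI, 1.97 CPM in library 9 and 76.9 CPM in library 10. Library 10 alone was high, 39-fold above library 9. The log2 fold change of 5.81 ± 1.75 (SE, adjusted p = 0.188, edgeR, Benjamini-Hochberg) came to 1.54 without library 10. Ccl21a, made by lymphatic endothelium and T cell zone stroma, was at 7.86 and 30.4 against 15.3 and 34.8 CPM. Its libraries overlapped, with a log2 fold change of 0.39 ± 0.694 (SE, adjusted p = 0.825, same test) that became -0.27 without library 7, -0.28 without library 10 and 1.66 without library 8. Ccl19 had 40 counts in library 10 and 0 in the other libraries. Cxcl12, a stromal ligand of CXCR4, was at 4.39 and 19.9 against 22.7 and 30.7 CPM (log2 fold change 1.14 ± 0.673 SE, adjusted p = 0.452, same test). Its value was 0.43 without library 7 and 2.59 without library 8, where it was called (adjusted p = 0.0167, same test). Ccl21a, Ccl21b and Ccl21d are near-identical copies, so that all reads counted on Ccl21a may not be its own.

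The chemokines of the epithelium and mucosa included abundant ligands, and among them Ccl28 and Ccl20 lay wholly above in the p53-/- SI while the others overlapped or lay below. Ccl28, which draws CCR10-bearing plasma cells to mucosal surfaces, was at 25.2 and 21.6 CPM in p53+/+ SI and 117 and 72.6 CPM in p53-/- SI. It had 333 counts or more in every library, and the log2 fold change of 2.02 ± 0.272 (SE) had an adjusted p of 0.0569 (edgeR, Benjamini-Hochberg). Ccl20, which the epithelium over lymphoid follicles makes to attract CCR6-bearing cells, was at 0.433 and 1.04 against 5.96 and 16.5 CPM. It lay wholly above in p53-/- SI with a log2 fold change of 3.92 ± 0.739 (SE, adjusted p = 0.103, same test).

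Ccl25, the SI epithelial ligand of CCR9, was at 456 and 394 CPM in p53+/+ SI and 285 and 335 CPM in p53-/- SI. Both p53-/- libraries lay below, from 57.1 to 41.6 CPM per kilobase, with a log2 fold change of -0.46 ± 0.21 (SE, adjusted p = 0.336, edgeR, Benjamini-Hochberg). Cxcl16, a membrane-bound ligand of CXCR6, was at 60.2 and 50.9 against 33 and 45.8 CPM, again wholly below, with a log2 fold change of -0.5 ± 0.215 (SE, adjusted p = 0.312, same test). Cx3cl1, a membrane-bound ligand of CX3CR1, overlapped at 151 and 135 against 167 and 146 CPM, or 36.3 and 39.8 CPM per kilobase by genotype (log2 fold change 0.13 ± 0.177 SE, adjusted p = 0.758, same test). Cxcl14, which epithelia also express, overlapped at 12 and 48.1 against 30 and 33.3 CPM, and Ccl27a, a further CCR10 ligand, at 1.3 and 2.79 against 1.31 and 1.94 CPM, with log2 fold changes of 0.07 and -0.33. Beside these, 5 of 6 epithelial markers (Epcam, Vil1 and others) lay wholly below in p53-/- SI, as did 24.4% of all genes tested. The markers summed to 19900 and 14300 against 13700 and 11200 CPM, with a median log2 fold change of -0.46. Their part in the levels of Ccl25 and Cxcl16 was not tested. Ccl25, Cxcl16 and Ccl27a overlap Elavl1, Zmynd15 and Il11ra1 on the opposite strand.

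**Figure D1:**
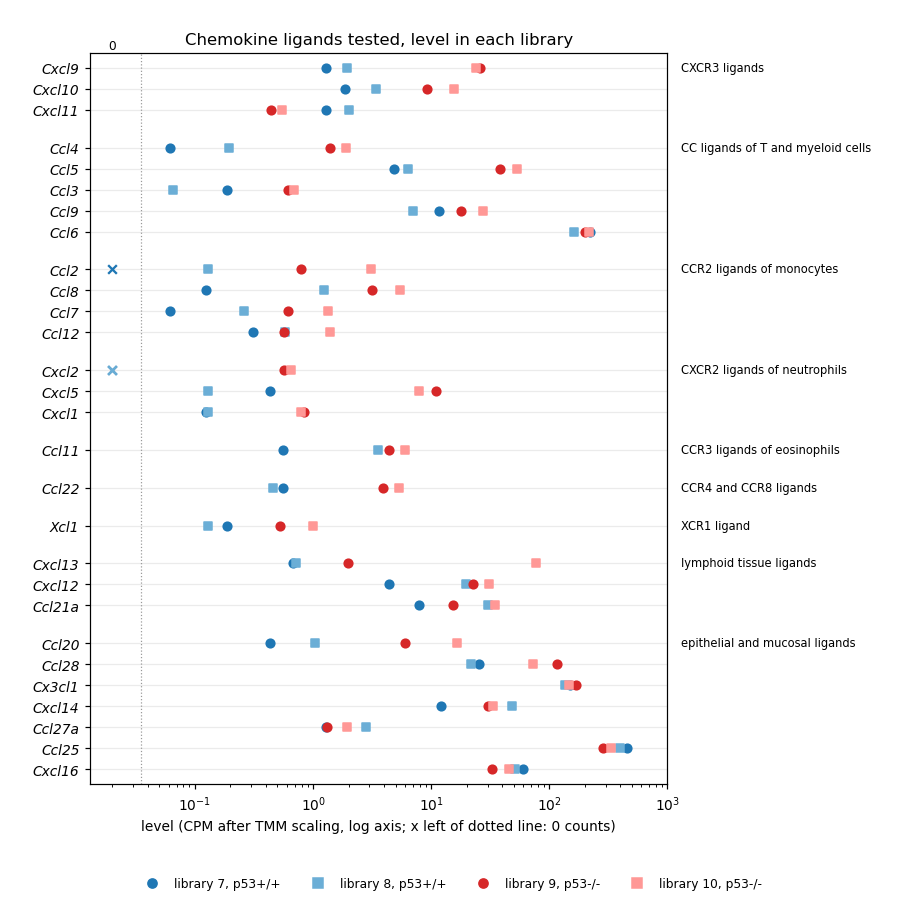
Level of each of the 28 tested ligands in each library, in CPM after TMM scaling on a log axis, grouped by the receptor or tissue they serve; circles and squares in blue are the p53+/+ libraries and in red the p53-/- libraries, and crosses left of the dotted line stand for 0 counts. Cxcl9 and Ccl5 show red points well to the right of blue, Cxcl13 has 1 red point far from the other 3, and Ccl6, Cx3cl1, Ccl25 and Cxcl16 lie at high levels with points close together. Ccl8 is drawn in the group of the CCR2 ligands, although it is paired with Ccr8 in the text.

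Among the receptors, Ccr4 (ENSMUSG00000047898), which marks skin-homing, helper and regulatory T cells, was the member that passed the test. It was at 0.371 and 0.324 CPM in p53+/+ SI and 9.38 and 5.87 CPM in p53-/- SI, from 6, 5, 214 and 118 counts. Ccr4 rose from 0.348 ± 0.0332 to 7.62 ± 2.48 CPM (SD, n = 2), which is a log2 fold change of 4.43 ± 0.522 (SE, adjusted p = 0.0495, edgeR, Benjamini-Hochberg). This call is at the edge of the threshold, and Ccr4 passed the filter on low counts through the p53-/- libraries alone. With at least 10 counts asked in every library it was not tested and 0 receptors passed. The call was also lost with RLE or upper-quartile factors, with library size alone, with the ribosomal RNA gene Rn18s-rs5 left out before scaling, without library 9 and without library 10, and the adjusted p ranged from 1.41e-10 to 0.306 over all alternatives. The fold change itself lay between 4.04 and 4.78 on the log2 scale when any 1 library was left out.

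Receptors of mucosal lymphocytes and plasma cells lay wholly above in the p53-/- SI. Ccr9, the gut-homing receptor of SI T cells and plasma cells, was at 0.743 and 1.17 against 7.58 and 6.32 CPM, a log2 fold change of 2.86 ± 0.465 (SE, adjusted p = 0.0792, edgeR, Benjamini-Hochberg). Ccr10, the receptor of mucosal plasma cells, was at 0.309 and 0.908 against 5.7 and 7.01 CPM, a log2 fold change of 3.37 ± 0.631 (SE, adjusted p = 0.101, same test). Its p53+/+ libraries, with 5 and 14 counts, differed 2.94-fold. Both receptors were called without library 7 and without library 8. Exons of Ccr9 overlap Slc6a20a, Gm17200 and AC165425.1, and the reads of these genes cannot be told apart where they are shared.

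Receptors of activated and resident T cells followed. Cxcr3, the receptor of Cxcl9 and Cxcl10, had 4 and 5 counts in p53+/+ SI and 44 and 50 in p53-/- SI, a log2 fold change of 2.92 ± 0.585 (SE, adjusted p = 0.106, edgeR, Benjamini-Hochberg). Cxcr6, carried by tissue-resident T cells, had 4 and 10 against 62 and 90 counts, a log2 fold change of 2.99 ± 0.674 (SE, adjusted p = 0.125, same test). Neither passed the threshold, although no library of one genotype overlapped the other. DESeq2 called both, with adjusted p of 0.0458 for Cxcr3 and 0.0183 for Cxcr6.

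Receptors of monocytes, macrophages and dendritic cells lay above in the p53-/- SI, and Cx3cr1 also differed 4.14-fold between the p53+/+ libraries. Cx3cr1, the receptor of intestinal macrophages, was at 2.23 and 9.21 against 11.7 and 12.7 CPM (log2 fold change 1.09 ± 0.659 SE, adjusted p = 0.461, edgeR, Benjamini-Hochberg). Ccr2, which brings monocytes out of the bone marrow, had 2 and 12 against 63 and 62 counts (log2 fold change 2.69 ± 0.838 SE, adjusted p = 0.198, same test). Ccr1, shared by myeloid cells, was at 3.84 and 5.58 against 8.02 and 9.2 CPM and was 1 of the 4 receptors with the highest level per kilobase, 1.66 in p53+/+ and 3.04 CPM per kilobase in p53-/- SI (log2 fold change 0.87 ± 0.368 SE, adjusted p = 0.301, same test). Xcr1, a marker of cross-presenting dendritic cells, had 0 and 6 against 29 and 28 counts. All 4 lay wholly above in p53-/- SI, and none of these 4 was called by the quasi-likelihood test on all 4 libraries or by DESeq2. The likelihood ratio test of edgeR called Ccr2, and without library 8 the quasi-likelihood test called Ccr2 (log2 fold change 4.49, adjusted p = 0.0267) and Cx3cr1 (2.45, adjusted p = 0.021). Without library 7 these values were 1.91 and 0.41, with no call.

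Receptors of lymphoid tissue were highest in library 10. Cxcr5, the B cell receptor of Cxcl13, had 3 and 0 counts in p53+/+ SI, 14 in library 9 and 611 in library 10. The ratio of the genotypes was 153 with a 95% exact counting interval of 52.2 to 745, but the libraries of p53-/- SI differed 49.5-fold, and the log2 fold change of 7.26 ± 2.21 (SE, adjusted p = 0.191, edgeR, Benjamini-Hochberg) came to 2.68 without library 10 and to 11.23 without library 7. Cxcr4, the receptor of Cxcl12 on most leukocytes, was at 0.124 and 1.04 CPM in p53+/+ SI, 2.45 CPM in library 9 and 31.4 CPM in library 10, and its log2 fold change of 4.86 ± 1.49 (SE, adjusted p = 0.193, same test) came to 2.11 without library 10 and to 7.01 without library 8. Ccr7, which guides naive T cells and dendritic cells to lymph nodes, had 0 and 5 against 35 and 140 counts, and its log2 fold change of 4.67 ± 1.35 (SE, adjusted p = 0.177, same test) came to 3.24 without library 10 and to 9.38 without library 8. The values of Cxcr5 without library 7 and of Ccr7 without library 8 are set against 0 counts and depend on the prior count. DESeq2 called Ccr7 (adjusted p = 0.0123), and none of these leave-outs gave a call of the 3 genes. Ccr6, the receptor of Ccl20 on B cells and helper T cells, had 100 counts in library 10 and 0 in all others. Per kilobase, Cxcr4 (0.321 in p53+/+ and 9.37 in p53-/- SI), Cxcr5 (0.0279 and 4.65) and Ccr10 (0.353 and 3.68 CPM per kilobase) were, with Ccr1, the 4 receptors with the highest mean level. Exons of Cxcr5 overlap Bcl9l on the opposite strand.

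Of the 5 atypical receptors listed, Ccrl2 alone lay wholly above in p53-/- SI. Ackr1, Ackr2, Ackr3 and Ackr4, which take up chemokines on endothelium and stroma, overlapped between genotypes, with log2 fold changes of 0, 0.76, 0.17 and -0.76. Their standard errors of 0.705 to 0.885 on the log2 scale bound these differences loosely, and exons of Ackr1 and Ackr4 overlap Cadm3 and Acad11. Ccrl2, which holds chemerin at the surface of myeloid and endothelial cells, was at 0.495 and 2.34 against 4.12 and 6.57 CPM (log2 fold change 1.91, adjusted p = 0.287, edgeR, Benjamini-Hochberg). Of the receptors not tested, Cxcr2, the neutrophil receptor, had 0 and 0 against 11 and 5 counts and was at least 3.92-fold higher, Ccr8 had 0 and 0 against 1 and 5, and Ccr3 had 1 and 0 against 2 and 11.

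**Figure D2:**
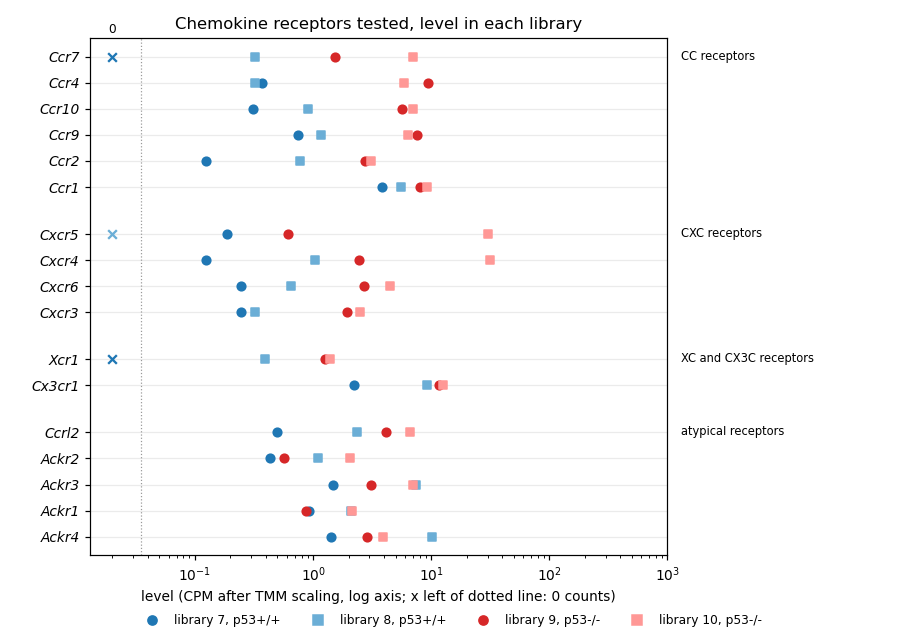
Level of 17 of the 18 tested receptors in each library, in CPM after TMM scaling on a log axis, with p53+/+ libraries in blue, p53-/- libraries in red and crosses for 0 counts. Ccr4, Ccr9, Ccr10 and Cxcr3 show blue and red points that lie apart, Cxcr5 and Cxcr4 have library 10 far to the right, and the 4 Ackr genes mix blue with red.

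Ligands were then set beside the receptors they are known to bind. Of 29 pairs, 19 had both genes tested, and in 11 of these both lay wholly above in p53-/- SI. In 7 pairs the receptor lay above and the ligand did not. These were Ccl25 with Ccr9, Cxcl16 with Cxcr6, Cx3cl1 with Cx3cr1, Ccl27a with Ccr10, Ccl21a with Ccr7, Ccl12 with Ccr2 and Cxcl11 with Cxcr3. The reverse held for 1 pair, Cxcl12 with Ackr3. For Ccl25 and Ccr9 the log2 fold changes were -0.46 and 2.86, and for Cxcl16 and Cxcr6 they were -0.5 and 2.99, so each receptor lay wholly above while its ligand lay wholly below. Ccl28 and Ccr10 both lay above, by 2.02 and 3.37 on the log2 scale. Several pairs share a gene, and all come from the same 4 libraries, so the count of pairs is a description.

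**Figure D3:**
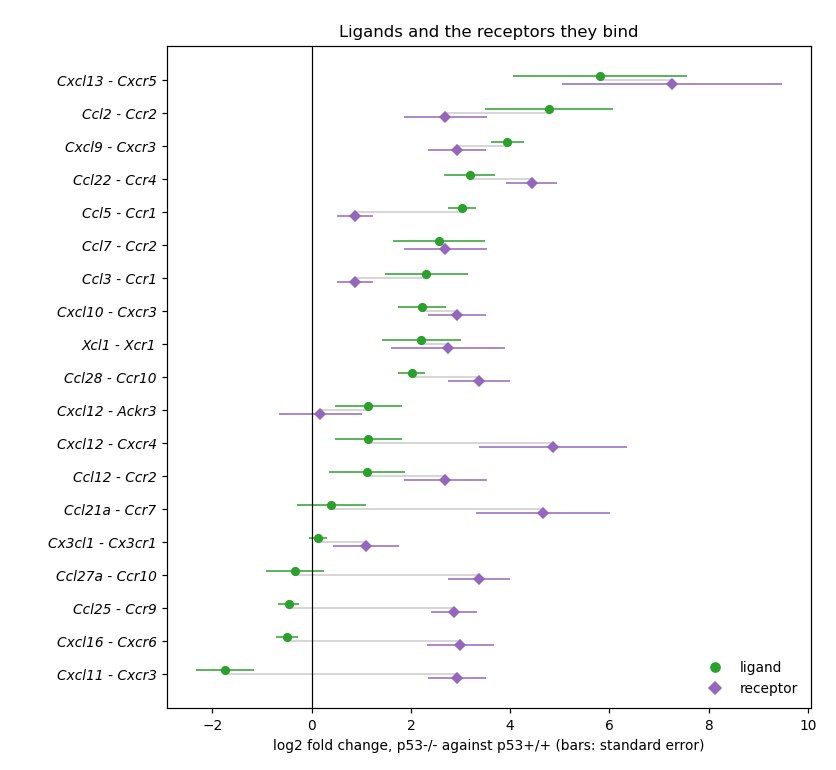
Log2 fold change of p53-/- against p53+/+ SI for the ligand (green circle) and the receptor (purple diamond) of each of the 19 pairs with both genes tested, with bars for the standard error; pairs are ordered by the ligand. The ligands run from 5.81 for Cxcl13 to -1.74 for Cxcl11, whereas all receptors lie right of 0, down to 0.17 for Ackr3; the values of Ccl2 and Cxcr5 rest on 2 and 3 counts in p53+/+ SI.

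Libraries of the same genotype were compared next, because 2 libraries per genotype leave the spread poorly known. Library 10 exceeded library 9 by more than 4-fold for 1 of 28 ligands, Cxcl13, and 3 of 18 receptors, Cxcr5, Cxcr4 and Ccr7, against 1.52% of all genes with over 3 counts in library 9. Library 8 exceeded library 7 by more than 4-fold for 3 of 20 ligands with over 3 counts in library 7 (Ccl11, Cxcl12 and Cxcl14) and 5 of 13 receptors (Ackr4, Ackr3, Ccrl2 and Cx3cr1 among them), against 6.46% of all genes.

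**Figure D4:**
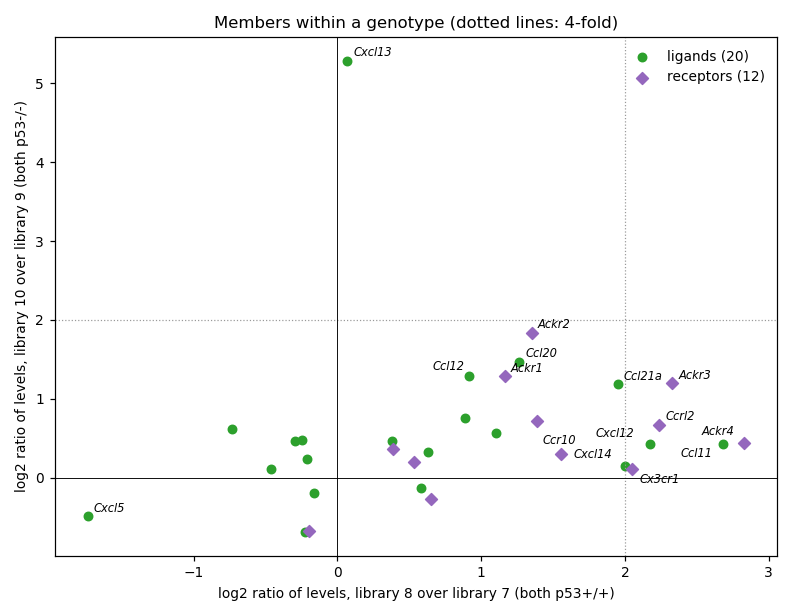
Log2 ratio of library 8 over library 7 (both p53+/+, horizontal) against library 10 over library 9 (both p53-/-, vertical) for 20 ligands and 12 receptors with over 3 counts in both denominators; dotted lines mark 4-fold. Cxcl13 stands alone at the top, 39-fold, and Ackr4 and Ccl11 lie farthest to the right, at 7.11- and 6.41-fold.

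Cell type markers moved with several of these genes. All 10 T cell markers (Cd3e, Cd8a and others) lay wholly above in p53-/- SI, summed at 7.74 and 15.2 CPM in p53+/+ SI and 74.2 and 145 CPM in p53-/- SI, with Cd8b1 at 0 counts in both p53+/+ libraries. All 9 B cell and follicle markers, of which 8 were tested, lay wholly above too, beside 26.4% of all genes tested. They summed to 2.29 and 3.05 CPM in p53+/+ SI, 28.1 CPM in library 9 and 553 CPM in library 10. Pax5 and Fcer2a were among those at 0 counts in both p53+/+ libraries. Library 10 was the highest of the 4 libraries in B cell markers, in Cxcl13 and in Cxcr5, and the part of these markers in the levels of the chemokine genes was not tested.

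Dendritic cell markers were at 3.53 and 14.5 against 26.3 and 44 CPM, with 6 of 6 wholly above, and macrophage markers at 167 and 322 against 323 and 368 CPM, with 7 of 9 wholly above. For these and the lists below, the shares over all genes tested were 26.4% wholly above and 24.4% wholly below. Fibroblast markers (0 of 6 apart) were at 109 in library 7 and 641 CPM in library 8, and blood endothelial markers (0 of 6 apart) at 43.9 and 128 CPM, the same libraries between which Cxcl12, Ackr3 and Ackr4 differed. In the p53-/- libraries those lists were at 464 and 475 and at 108 and 142 CPM. Lymphatic endothelial markers, 2 of 4 wholly above, were at 19.4 and 48.2 against 40.9 and 33.5 CPM. Eosinophil markers, with 1 of 5 tested, were at 6.62 and 8.56 against 5.92 and 9.25 CPM, with 1 of 5 wholly above and 1 below. Most of that sum was Siglecf, which lay below, at 6.5 and 7.92 against 5.08 and 5.62 CPM. Epx lay above, with 1 and 0 against 10 and 10 counts. Prg2 (0 and 6 against 6 and 48 counts), Prg3 and Il5ra overlapped. Adipocyte markers, with 5 of 6 tested, were at 133 and 67.2 against 18.4 and 14 CPM. All 6 lay wholly below, and Cfd passed the threshold. The part of these lists in the results was not tested.

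Genes downstream and upstream of the chemokine receptors were counted from 5 lists of 75 genes, of which 69 were tested. None passed the threshold in edgeR's quasi-likelihood test, and 32 were higher and 3 lower at an unadjusted p under 0.05, beside 10% and 7.92% of all genes tested. DESeq2 called 24 of them, where it called 812 genes higher and 663 lower in all, and the likelihood ratio test of edgeR called 22. Integrins and their ligands, which let attracted cells adhere, had 10 of 13 genes wholly above and 1 below, beside 26.4% and 24.4% of all genes tested, and a median log2 fold change of 2.48. Itgae, the integrin of intraepithelial T cells, was at 2.78 and 5.58 against 22 and 19.3 CPM (log2 fold change 2.31, adjusted p = 0.0913, edgeR, Benjamini-Hochberg). G proteins and kinases of chemokine signalling had 15 of 28 wholly above and 3 below, with a median of 0.97. The 3 with the highest level, Gnb1, Plcb3 and Rac1, which all cells use, had log2 fold changes of -0.47, -0.06 and -0.12. Rac2, the leukocyte form of Rac1, had 3.08 and was at 6.5 and 9.21 CPM in p53+/+ SI, 24.6 CPM in library 9 and 108 CPM in library 10. Arrestins, receptor kinases and other terminators of the signal had a median of 0.39, with 5 of 14 wholly above and 3 below, which is near the shares over all genes.

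The interferon γ input of the CXCR3 ligands was counted from 12 genes. Ifng had 0 and 2 against 8 and 13 counts, and Il12b, which encodes IL12-p40, had 0 and 1 against 11 and 14 counts, too few for the test. Ifngr1, a chain of the interferon γ receptor, lay wholly below at 341 and 317 against 219 and 198 CPM, with a log2 fold change of -0.66 (adjusted p = 0.171, edgeR, Benjamini-Hochberg). Of these 12 genes, 8 were tested. Of the 8, 4 lay wholly above and 3 below, beside 26.4% and 24.4% of all genes tested, and the median log2 fold change was 0.66. Of the chemokines and receptors with other names, Gpr183, an oxysterol receptor of B cells, had 2 and 10 against 19 and 276 counts, and Pf4 had 7 and 27 against 30 and 70.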

How the data were processed

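For the SI of 2 p53+/+ and 2 p53-/- mice, the table the authors deposited holds raw counts per gene, which were not normalized. The submitters' processing notes name fastp, HISAT2 2.0.5, featureCounts 1.5.0-p3 and DESeq2 1.20.0; the genome build, the annotation and the strand setting were not given in the sources used here, so reads of overlapping genes or near-identical copies could have been split. The column names give the genotype but not the label's replicate number. The members, lists and pairs were chosen with earlier results of these data known.

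Library sizes were scaled by TMM, low genes were removed by filterByExpr (about 10 counts in 2 libraries, or 0.537 CPM), and 16094 genes were tested with edgeR 4.0.16 (quasi-likelihood test, two-sided, Benjamini-Hochberg adjustment over all genes tested, threshold 0.05) in R 4.3.3. The code was tested on simulated data. The spread between libraries of one genotype exceeded sampling noise (chi-square per degree of freedom 48 and 69.5), and p-values measure the spread between these libraries. A genotype with 0 counts in both libraries was given the bound of 3 counts, and one with 1 to 3 counts a ratio with a 95% exact interval, both for counting error only. Alternatives were DESeq2 1.42.0, the likelihood ratio test, other scaling factors, filters and thresholds, 665 gene segments of immunoglobulins and T cell receptors removed, Rn18s-rs5 left out (chosen after seeing the data) and each library left out in turn. Exon lengths and overlaps came from GENCODE M21.

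Full values are given for members past the threshold, the 10 ligands and 8 receptors with the largest change among those whose genotypes did not overlap and whose mean was at least 1 CPM, the 6 ligands and 4 receptors with the highest level per kilobase, and their partners. Itgae, Rac2, Ifng, Il12b, Ifngr1, Gpr183 and Pf4 were named after their values were seen. Values of 1 receptor, which is included in the counts over all receptors, are not reported here.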

Additional observations from a re-analysis of the deposited data

How the results depend on the processing

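No paired analysis was possible because the columns of the table carry no replicate number of the labels. Against 48 genes higher and 31 lower, 2 ligands, 1 receptor and 0 other pathway genes past the threshold, the likelihood ratio test gave 833 and 462 genes, 12 ligands, 9 receptors and 22 pathway genes. DESeq2 gave 812 and 663 genes, 10 ligands, 6 receptors and 24 pathway genes, with no adjusted p for 7 members. Without a filter on low counts the numbers were 1433 and 761 genes, 15 ligands, 13 receptors and 33 pathway genes, and the prior degrees of freedom of the fit became infinite instead of 3.45. At a threshold of 0.01, 4 genes were higher and 2 lower, and at 0.1, 5 ligands (Ccl22, Ccl28, Ccl5, Cxcl5 and Cxcl9) and 2 receptors (Ccr4 and Ccr9) passed. Upper-quartile factors gave 29 and 20 genes and library size alone 26 and 20, and with both, with RLE factors and with Rn18s-rs5 left out 0 receptors passed; the cause was not tested. With at least 10 counts in every library, which leaves fewer members, 24 and 18 genes and 0 receptors passed, 11 ligands and 3 receptors did not overlap between genotypes instead of 22 and 14, and the medians were 0.43 and 0.57. With gene segments of immunoglobulins and T cell receptors removed, 1 pathway gene passed.

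Leaving out 1 library at a time gave 0 to 680 genes higher (325 without library 7 and 77 without library 9), 0 to 344 lower (319 without library 7), 0 to 11 ligands, 0 to 8 receptors and 0 to 16 pathway genes, with a median over receptors of 1.91 to 3.82. The lowest counts, 0 throughout, came without library 10 and the highest without library 8. Of the 31 members compared by name, the log2 fold change reversed for Ccl21a (-0.27 without library 7 and -0.28 without library 10), Ccl6 (-0.11 without library 8) and Ccl27a (0.31 without library 8); none of these 3 had been called. With 2 libraries per genotype and 0.0438 to 0.0649 CPM per count, members at a few counts cannot be bounded closely.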

Other observations

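Many members share a chromosome. By the GRCm38 annotation, 14 of the 23 receptors are on chromosome 9, and 12 of these 14 lay wholly above in the p53-/- SI. Over all chromosomes, 17 of the 23 receptors lay wholly above, as did 26.4% of all genes tested. Of the 11 ligands on chromosome 5, which include the CXCR3 and CXCR2 ligands, 8 lay above and 1, Cxcl11, lay below. Of the 12 ligands on chromosome 11, 8 lay above and 1, Cxcl16, lay below. None of the 6 ligands on chromosome 4, which are the Ccl19, Ccl21 and Ccl27 genes, lay above or below, and 3 of these 6 had 0 counts in all libraries. These are tallies over whole chromosomes, not over gene clusters, they include members that were not tested, and no test of a difference between chromosomes was run.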
